A study of Mus musculus with 8 samples.

Results

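Very long protein-coding genes were examined in a map of chromatin contacts held by RNA polymerase II in mouse liver. They were all autosomal protein-coding genes of the RefSeq annotation of GRCm38.p6 with a span over 200 kb, 944 of 20661 autosomal protein-coding genes. Their median span was 326.4 kb. The longest, Ptprd, spanned 2.27 Mb, 215 were over 500 kb and 55 over 1 Mb. They cover 399.2 Mb of the genome, 17.0% of the 10 kb bins that hold data, and 22 of them overlap another long gene. The direction of transcription was known for 707 of them.

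The assay was ChIA-PET, in which crosslinked chromatin is precipitated with an antibody against RNA polymerase II (clone 8WG16) and the DNA ends within each complex are ligated through linkers and sequenced as paired-end tags (PETs). All 8 libraries came from livers of wild-type C57BL/6 mice of 3 to 6 months, kept under 12 h of light and 12 h of dark with free access to food and water. Livers were taken at ZT6, the middle of the day, or ZT18, the middle of the night, and the chromatin of 3 to 7 livers was pooled for a precipitation. The experiments JM08 (4 libraries) and JM12 (2 libraries) were crosslinked with 1.5 mM EGS, a long-armed crosslinker, and 1% formaldehyde, and JM11 (2 libraries) with 1% formaldehyde alone. The table of PETs names the experiment and not the library, so each experiment is 1 pool, day and night were not analysed here, and the values of the 3 experiments stand side by side as the only replication. Formaldehyde alone was used in a single experiment, so that change and the experiment cannot be told apart.

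RNA polymerase II loads at a promoter, often pauses just downstream, and then transcribes to the end of the gene, where it slows before release. In a very long gene most of the DNA is intron, and a polymerase needs hours to cross it. Many of the longest mammalian genes code for adhesion and synaptic proteins of neurons, while others are housekeeping, signalling or metabolic genes that hepatocytes use. Long genes often have further promoters inside them that make shorter transcripts.

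The sequences just upstream of 4 annotated starts are shown because these genes had among the highest densities of PET ends at their boundaries relative to their interiors. They are the 4 highest in that order for which the RefSeq promoter table holds a start at the gene's boundary. Each is the 250 bases before the start, 5′ to 3′ on the strand of the gene, with matches to GGGCGG on either strand in capitals. Dock3, Magi3, Pitpnc1 and Smg6 lie at chr9:107231910-107232159 (minus strand), chr3:104220407-104220656 (minus), chr11:107470721-107470970 (minus) and chr11:74925604-74925853 (plus).
Dock3: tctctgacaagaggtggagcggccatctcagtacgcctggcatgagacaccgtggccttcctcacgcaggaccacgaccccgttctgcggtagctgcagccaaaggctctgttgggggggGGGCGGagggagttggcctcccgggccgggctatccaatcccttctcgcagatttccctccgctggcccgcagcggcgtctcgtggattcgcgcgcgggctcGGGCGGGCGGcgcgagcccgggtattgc
Magi3: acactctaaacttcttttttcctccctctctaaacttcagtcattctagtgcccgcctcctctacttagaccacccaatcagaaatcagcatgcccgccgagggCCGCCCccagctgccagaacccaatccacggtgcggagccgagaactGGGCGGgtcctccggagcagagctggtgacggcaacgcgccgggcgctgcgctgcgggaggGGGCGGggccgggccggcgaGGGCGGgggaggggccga
Pitpnc1: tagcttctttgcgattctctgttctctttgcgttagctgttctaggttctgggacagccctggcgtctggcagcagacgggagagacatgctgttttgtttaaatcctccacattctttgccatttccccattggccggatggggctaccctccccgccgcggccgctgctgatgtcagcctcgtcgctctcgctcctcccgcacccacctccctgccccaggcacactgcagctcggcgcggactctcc
Smg6: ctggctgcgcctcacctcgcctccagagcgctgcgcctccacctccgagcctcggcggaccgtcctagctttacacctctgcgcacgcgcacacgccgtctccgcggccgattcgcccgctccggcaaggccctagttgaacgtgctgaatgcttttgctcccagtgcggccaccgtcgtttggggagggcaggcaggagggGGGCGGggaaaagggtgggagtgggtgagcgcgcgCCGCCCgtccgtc

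A second set of 3 sequences lies inside long genes. These annotated starts lie over 10 kb from either boundary. They were the densest relative to the interior of their gene in the lowest of the 3 experiments, leaving out a start beside another gene's boundary. The choice was made after their values were seen. They lie at chr7:65371245-65371494 (Tjp1, minus strand), chr14:21075902-21076151 (Adk, plus) and chr14:27335787-27336036 (Arhgef3, plus), with the same motif in capitals.
Tjp1: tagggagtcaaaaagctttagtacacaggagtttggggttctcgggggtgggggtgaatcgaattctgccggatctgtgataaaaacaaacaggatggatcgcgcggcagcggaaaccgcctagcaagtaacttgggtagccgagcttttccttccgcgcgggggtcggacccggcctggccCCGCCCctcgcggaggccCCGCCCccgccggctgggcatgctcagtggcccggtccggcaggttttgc
Adk: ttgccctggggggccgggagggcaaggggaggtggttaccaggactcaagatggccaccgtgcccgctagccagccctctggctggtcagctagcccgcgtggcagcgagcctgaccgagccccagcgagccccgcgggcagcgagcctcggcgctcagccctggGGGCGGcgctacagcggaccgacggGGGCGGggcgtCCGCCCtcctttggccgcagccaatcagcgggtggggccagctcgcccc
Arhgef3: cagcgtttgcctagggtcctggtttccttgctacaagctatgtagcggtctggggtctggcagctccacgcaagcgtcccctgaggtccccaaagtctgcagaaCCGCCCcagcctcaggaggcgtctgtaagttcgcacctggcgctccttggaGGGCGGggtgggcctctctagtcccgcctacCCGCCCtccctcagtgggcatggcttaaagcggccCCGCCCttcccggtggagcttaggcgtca

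The stretches are rich in G and C, from 60.4% in Pitpnc1 to 75.2% in Adk, and hold between 15 CG dinucleotides in Arhgef3 and 30 in Smg6. GGGCGG, the core of the GC box, occurred in 6 of the 7, and Pitpnc1 had no match. The E-box CACGTG, bound by the clock factor BMAL1 with CLOCK, was found in none of the 7, and neither was TATAAA, the motif of many sharp promoters. Over the full RefSeq windows of 300 bases (250 before to 50 after the start, both strands), GGGCGG was present at 346 of 584 boundary starts of long genes (59.2%) and at 9446 of 20084 starts of all autosomal protein-coding genes (47.0%). TATAAA was present at 5.48% and 12.7% and CACGTG at 6.51% and 7.89%, and the median number of CG dinucleotides was 20 and 14. Starts over 10 kb downstream of the outer start of the long genes held fewer, with a median of 6 in 372 windows, and GGGCGG in 26.6% of them. Genes with several starts enter more than once, and these are descriptions of letters, not of binding.

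Counted over the whole gene, the long genes held fewer PET ends per base than short genes in the dual-crosslinked experiments. They held slightly more in the experiment with formaldehyde alone. Density is given relative to the mean of all autosomal 10 kb bins holding an end, 0.392 ends per kb in JM08, 1.19 in JM11 and 0.696 in JM12. The median relative density of the long genes was 0.898 in JM08, 1.11 in JM11 and 1.04 in JM12. Over the 8595 genes of 10 to 50 kb it was 1.19, 1.06 and 1.36. The DNA near the boundaries is a larger share of a short gene. Without the 2.5 kb inside each boundary, the medians were 0.878, 1.11 and 1.03 in the long genes. In the genes of 10 to 50 kb they were 0.918, 0.963 and 1.17. The gap was thus smaller there in JM08 and JM12 and larger in JM11. In bulk liver, fewer cells that use a gene and less polymerase per cell cannot be told apart. A median long gene held 116 ends in JM08, 428 in JM11 and 241 in JM12, and the members together held 15.4%, 19.0% and 17.2% of autosomal ends. The spread among long genes was narrow: from the 25th to the 75th percentile, relative density ran from 0.814 to 0.976 in JM08, from 1.02 to 1.21 in JM11 and from 0.878 to 1.20 in JM12. No long gene reached a relative density of 1.5 in all 3 experiments. Of all 13319 autosomal protein-coding genes over 10 kb, 3.97% did. Most of those were short: 6.02% of genes of 10 to 50 kb did, 0.415% of those of 50 to 100 kb and 0.146% of those of 100 to 200 kb. The lack of such genes is thus nearly shared by genes of 50 to 200 kb. At a relative density of 1, a limit set after the data were seen, 125 of 944 long genes (13.2%) passed in all 3, against 31.2% of genes over 10 kb.

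**Figure D1:**
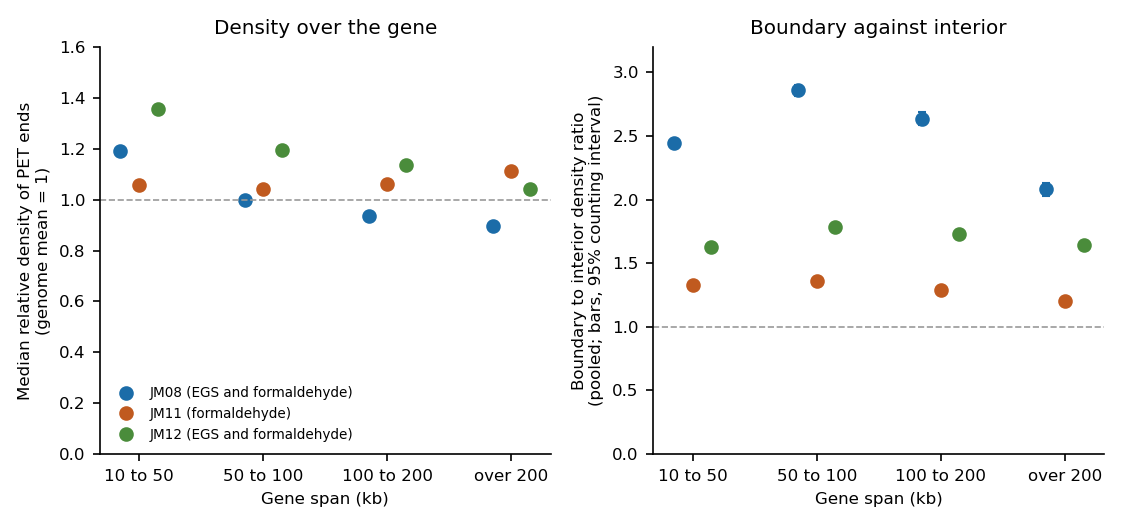
Left, median density of PET ends over the gene relative to the autosomal mean, by gene span in kb and experiment. Right, density within 2.5 kb of the gene boundaries divided by that of the interior, over all genes of a class, with 95% counting intervals that are often smaller than the points. The genes over 200 kb are lowest of the 4 classes in JM08 and JM12 in the left panel and highest in JM11, and their ratio, 2.08, 1.20 and 1.64, lies below that of genes of 50 to 100 kb in every experiment.

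The same measure was high on hepatocyte markers in most cases. The 8 hepatocyte markers (Alb, Apoa1, Apoa2, Ttr, Serpina1c, Fgb, Tat and Cps1) had a median relative density of 70.9 in JM08, 9.42 in JM11 and 14.8 in JM12. In JM11 they ranged from 0.418 to 26.9, and 7 of 8 were above 1, while all 8 were above 1 in JM08 and JM12. The 3 neuronal markers (Snap25, Syt1 and Rbfox3) were near the genome mean, at medians of 1.00, 1.23 and 1.07, and the 6 markers of other liver cells (Stab2, Clec4f, Ptprc, Dcn, Reln and Vwf) at 0.945, 1.25 and 1.27. The medians of the long genes, 0.898, 1.11 and 1.04, lie near those of the neuronal markers. How far they stand above background was not tested.

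Pooled over the long genes, PET ends were denser at the boundaries than in the interiors in all 3 experiments. The windows within 2.5 kb of both boundaries held 6815 ends in JM08, 14980 in JM11 and 10737 in JM12, and the interiors 138306, 525568 and 276464. Per base, boundaries exceeded interiors 2.08-fold in JM08 (95% interval 2.03 to 2.13), 1.20-fold in JM11 (1.18 to 1.22) and 1.64-fold in JM12 (1.61 to 1.67). These exact intervals, and all others here, cover counting error only, since PETs may be copies of the same molecule and the genes differ among themselves. Single long genes varied: their median ratio was 1.46 in JM08, 1.16 in JM11 and 1.43 in JM12. Only 67.6%, 66.6% and 76.9% of them had a ratio above 1. The pooled excess was smaller than that of the 2412 genes of 50 to 100 kb, 2.86 (2.82 to 2.90), 1.36 (1.35 to 1.38) and 1.78 (1.76 to 1.80), with intervals that do not overlap those of the long genes. Of the 4 span classes over 10 kb (10 to 50, 50 to 100, 100 to 200 and over 200 kb), that one had the highest ratio in each experiment. Against the 8595 genes of 10 to 50 kb, at 2.45 (2.42 to 2.47), 1.33 (1.32 to 1.34) and 1.63 (1.62 to 1.64), the long genes were lower in JM08 and JM11, and in JM12 the intervals overlap. The excess fell with span among the long genes in JM08, from 2.45 (2.37 to 2.54) in the 412 genes of 200 to 300 kb to 1.29 (1.14 to 1.46) in the 55 over 1 Mb. Between the same classes it went from 1.24 (1.21 to 1.27) to 1.12 (1.05 to 1.20) in JM11 and from 1.68 (1.63 to 1.73) to 1.45 (1.32 to 1.58) in JM12.

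The excess was present in each kind of PET. Among PETs joining different chromosomes the ratio over the long genes was 1.70 in JM08, 1.14 in JM11 and 1.55 in JM12. Among PETs of up to 8 kb it was 3.79, 2.36 and 2.14, and among longer ones within a chromosome 1.78, 1.15 and 1.62. All 9 intervals lie above 1. PETs joining different chromosomes gave most of the ends counted: 107282 of 138306 interior ends in JM08, 469517 of 525568 in JM11 and 223847 of 276464 in JM12. At the boundaries they gave 4328 of 6815, 12626 of 14980 and 8238 of 10737. The densities here are therefore mostly of such ends, not of contacts within a chromosome.

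Most of the boundary signal was at the start of transcription. The start here is the outer boundary of the gene on its strand. An annotated RefSeq start lay within 2.5 kb of that boundary in 584 long genes. Over the 707 long genes of known direction, the start windows held 3508, 5907 and 5088 ends in JM08, JM11 and JM12, and the end windows 1638, 5299 and 3086. Relative to the interior, the start was 2.85-fold (2.75 to 2.95), 1.27-fold (1.23 to 1.30) and 2.07-fold (2.01 to 2.13) as dense. The end was 1.33-fold (1.27 to 1.40), 1.14-fold (1.11 to 1.17) and 1.26-fold (1.21 to 1.30) as dense. The start held more ends than the end in 399 of 707 genes in JM08, in 347 in JM11 and in 447 in JM12, and fewer in 206, 305 and 192. In the 1 kb just inside the start, relative density was 4.81, 1.92 and 3.49, and at the 1 kb before it 3.26, 1.57 and 2.54.

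Boundaries of other genes close by added to these values. Where no other protein-coding boundary lay within 5 kb, the start ratio was 2.62, 1.22 and 1.96 (645 genes), and the end ratio 1.16, 1.12 and 1.16 (592 genes). Where 1 did, the start ratio was 5.20, 1.81 and 3.15 (62 genes) and the end ratio 2.29, 1.22 and 1.76 (115 genes). Past the start the density declined: from 2.5 to 10 kb into the gene it was 1.03, 1.14 and 1.11 in JM08, JM11 and JM12, and from 75 to 100 kb it was 0.843, 1.06 and 1.01. From 2.5 to 10 kb before the end it was 0.973, 1.18 and 1.17, with intervals that overlap those of the start side. Further in, the side of the end was the denser in JM11 and JM12, for example at 10 to 25 kb, with 1.14 (1.12 to 1.16) against 1.08 (1.06 to 1.10) in JM11 and 1.10 (1.08 to 1.12) against 1.05 (1.03 to 1.08) in JM12, where the JM11 intervals are apart and the JM12 ones all but touch. JM08 gave no steady order: the end side was at 0.898 (0.869 to 0.927) against 0.929 (0.900 to 0.959) at 10 to 25 kb, with intervals that overlap, as they also do at 25 to 50 and at 75 to 100 kb. Only at 50 to 75 kb did the intervals separate in all 3 experiments, at 0.919, 1.12 and 1.05 on the end side against 0.870, 1.06 and 0.973.

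**Figure D2:**
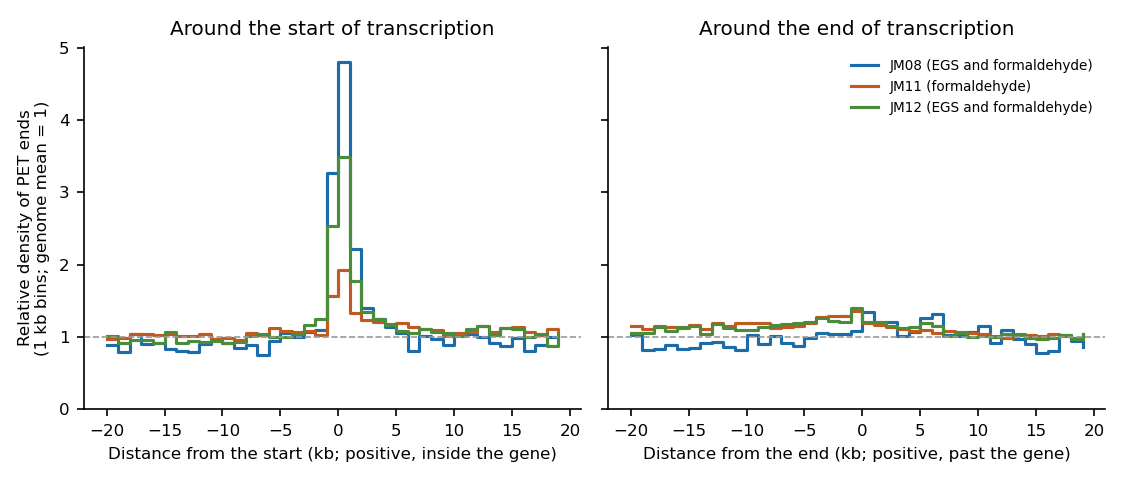
Relative density of PET ends in 1 kb bins, summed over the 707 long genes of known direction, against the distance in kb from the start (left) and the end (right) of transcription; lines are the 3 experiments. A narrow peak at the start reaches 4.81 in JM08, 3.49 in JM12 and 1.92 in JM11, while the bins around the end stay below 1.5.

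A total of 45 long genes carried at least 2-fold more ends per base at the boundaries than inside in all 3 experiments, with at least 5 boundary ends in each. That is 4.77% of 944, below the 9.02% of the 13319 genes over 10 kb that met the same rule. The rule needs enough ends: 452 of the long genes had fewer than 5 boundary ends in at least 1 experiment, and of the 492 that could meet it 9.15% did, against 14.4% of the 8351 such genes over 10 kb. The count moved to 153 without JM11, to 98 with windows of 1 kb on either side of the boundary and to 9 with 5 kb, and to 19 without PETs of up to 8 kb. Of the 45, 17 (37.8%) had another gene's boundary within 5 kb, against 221 (23.4%) of all long genes. Without such neighbours, 28 of 723 long genes (3.87%) and 441 of 6847 genes over 10 kb (6.44%) met the rule. Of the 37 with known direction, the start window held more ends than the end window in all 3 experiments in 28, and in none of them in 2. GGGCGG was in 22 of 34 boundary promoters of these genes (64.7%) and in 324 of 550 of the other long genes (58.9%).

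Several genes met the rule through the start window alone. Magi3, a scaffold protein of cell junctions on chromosome 3, held 34 ends at its start in JM08, 26 in JM11 and 20 in JM12, and 1, 8 and 2 at its end. Its boundary to interior ratio was 13.3 (8.45 to 20.8), 3.40 (2.29 to 4.91) and 3.90 (2.35 to 6.19). The start stood above the end in every experiment. Pitpnc1, a phosphatidylinositol transfer protein, held 16, 27 and 31 ends at its start and 1, 9 and 3 at its end, a ratio of 5.84 (3.23 to 9.99), 3.29 (2.26 to 4.67) and 3.83 (2.59 to 5.50). Utrn, the dystrophin-related utrophin, held 32, 37 and 24 at its start and 2, 6 and 5 at its end. Its ratio of 9.88 (6.62 to 14.4), 3.28 (2.35 to 4.47) and 3.87 (2.55 to 5.65) came with the nearest other boundary 68329 bases from its start.

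In Smg6, Dock3, Spidr and Thada the dense boundary lay next to another gene. Smg6, an endonuclease of nonsense-mediated decay, held 44, 28 and 29 ends at its start, with the nearest boundary of Srr, serine racemase, 1679 bases away. Dock3, an exchange factor best known from neurons, held 38, 46 and 23 ends at its end and 1, 7 and 5 at its start. Its end lies 887 bases from a boundary of Manf, a stress-induced protein of the endoplasmic reticulum. The Dock3 start, whose GC-rich sequence is printed above, was thus among the low windows. Thada held 63, 25 and 39 ends at its end, 2109 bases from Zfp36l2, an RNA-binding protein that promotes mRNA decay, and 6, 10 and 7 at its start. The dense boundary of Spidr, a DNA repair scaffold, held 50, 23 and 38 ends and lies 321 bases from Cebpd, a transcription factor of the acute-phase response; the other held 5, 3 and 7. In these 4 genes the signal of the long gene and of its neighbour cannot be told apart.

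On the list of liver metabolism and hormone genes 3 of 16 met the rule (18.8%, against 4.77% of all long genes), Ghr, Dpyd and Pcca. Ghr, the growth hormone receptor, held 48, 21 and 33 ends at its start in JM08, JM11 and JM12 and 0, 5 and 2 at its end, a ratio of 6.95 (4.94 to 9.60), 2.56 (1.64 to 3.83) and 3.03 (2.07 to 4.31). Dpyd, which starts the breakdown of pyrimidines, held 12, 23 and 19 at its start and 2, 8 and 5 at its end. Pcca, a subunit of propionyl-CoA carboxylase, held 2, 14 and 10 at its start and 5, 9 and 7 at its end, so its start was not the denser in JM08. Its JM08 ratio was 2.06 (0.813 to 4.36), an interval that includes 1. The end of Pcca lies 916 bases from Ggact and its start 4037 from Zic2, and their signals cannot be told apart. Gbe1, Thrb and Phkb, also among the 45, are not on that list and were chosen after their values were seen. Gbe1, the glycogen branching enzyme, held 47, 31 and 19 at its start and 1, 4 and 3 at its end. Thrb, a thyroid hormone receptor, held 32, 13 and 14 at its start and 1, 11 and 3 at its end, so in JM11 its start held little more than its end. Its start lies 691 bases from LOC115488350, and their signals cannot be told apart. Phkb, a subunit of phosphorylase kinase, held 8, 20 and 10 ends at its start and 8, 8 and 5 at its end, and its start lies 96 bases from Itfg1.

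The densest long genes overall were of other kinds. Rapgef4, an exchange factor activated by cyclic AMP that is known to have a shorter form in liver, had 271, 437 and 281 ends and the highest relative density in JM08 of all 944, 2.501 (2.21 to 2.82). In JM11 it was 1.33 (1.20 to 1.46) and in JM12 1.46 (1.30 to 1.64). Its boundaries were no denser than its interior, with ratios of 0.711, 0.439 and 0.587. The JM08 signal lay in the downstream part of the gene, with relative densities of 4.89, 7.48, 3.78 and 2.77 in the last 4 deciles of its length and no more than 1.48 in the 6 before. Over the same last 4 deciles of Rapgef4, JM12 ranged from 1.46 to 2.34 and JM11 from 1.30 to 1.55.

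By the lowest of the 3 experiments, Rapgef4 was followed by Celf4, an RNA-binding protein (1.23, 1.29 and 1.42), and Ppp3ca, the catalytic subunit of calcineurin (1.20, 1.24 and 1.29). Stxbp6 stood at 1.16, 1.30 and 1.15 and Gfra1, a co-receptor of GDNF, at 1.15, 1.15 and 1.47. Frmd4b, Pde4b, Palld, Hdac4 and Ehbp1 completed the 10 highest, between 1.13 and 1.35. They differ in where the ends lay: Gfra1 had boundary ratios of 11.1, 2.74 and 2.86, while Hdac4, a histone deacetylase, had 0.397, 0.740 and 0.419. Ghr was denser than all of these but Rapgef4 in JM08 (2.17, 1.90 to 2.47) and than all of them in JM12 (1.79, 1.60 to 1.99), yet at 0.900 (0.798 to 1.01) it was below the genome mean in JM11.

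**Figure D3:**
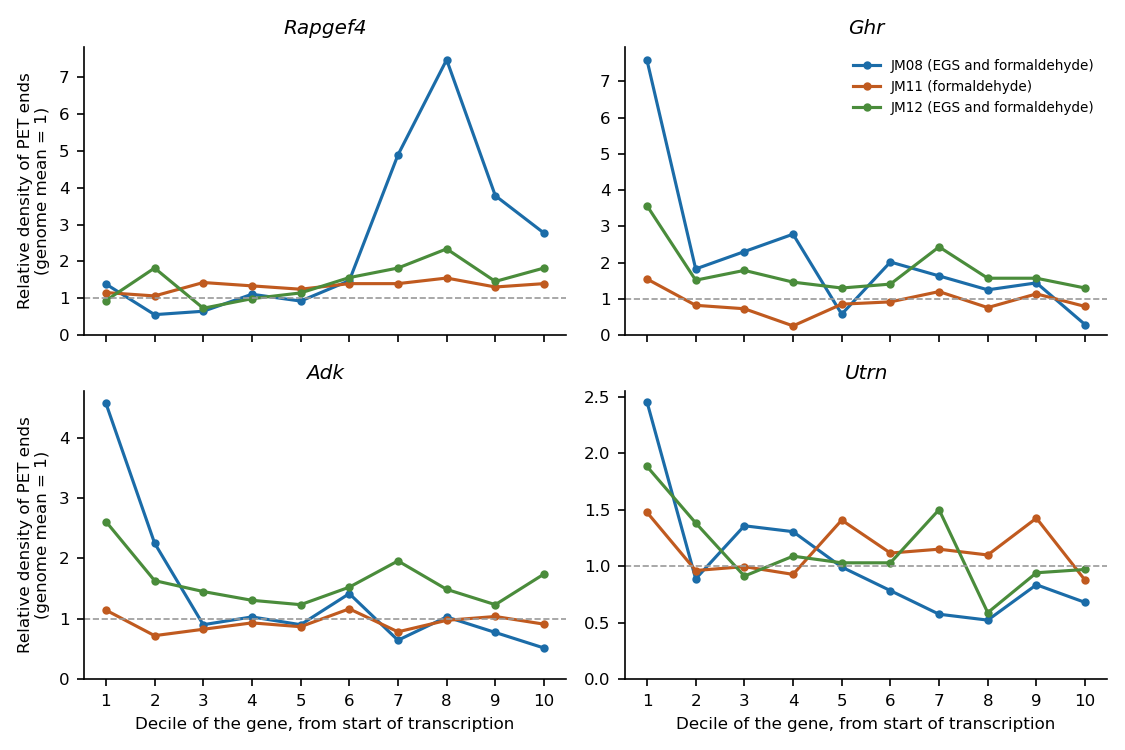
Relative density of PET ends in each decile of the length of Rapgef4, Ghr, Adk and Utrn, counted from the start of transcription; lines are the 3 experiments and the vertical scales differ. In Ghr, Adk and Utrn decile 1 is the highest in JM08 and JM12, and in Rapgef4 the highest JM08 value, 7.48, is in decile 8.

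The least dense long genes were predicted genes in which few ends were placed. Gm4724 held no end in any experiment, which allows up to 3 ends in each by the one-sided 95% limit of a count of 0, and Gm21154, Gm40862, Gm40847 and Gm7592 had relative densities of 0.08 or less in every experiment. Just inside the span limit were Plcxd3 (200095 bases), Pcbp3 and Pbx3, and just outside it Atp9b (199941 bases), Sergef and Morc1. Relative densities were 0.866, 1.02 and 0.732 for Plcxd3 and 0.905, 1.17 and 1.04 for Atp9b.

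Pooled together, starts inside long genes were also denser than their surroundings. The RefSeq promoter table gives 344 separate starts in 247 long genes at over 10 kb from both boundaries, where starts within 5 kb of the one before are merged. Windows of 2.5 kb on either side of them were 1.70-fold (1.60 to 1.81) as dense as the rest of the interiors of their genes in JM08, 1.18-fold (1.14 to 1.23) in JM11 and 1.55-fold (1.48 to 1.62) in JM12. For the single starts below, the interior they are set against includes the window itself, so those values are not on the same measure. Many single starts were not above the interior in every experiment, for example an inner start of Thrb at 1.89-fold, 0.857-fold and 2.25-fold. The starts named next are among the highest of the 344. At the inner start of Tjp1, which codes for the tight junction protein ZO-1, lay 34, 36 and 28 ends, 14.7-fold, 5.55-fold and 6.31-fold the density of the gene's interior. At that of Adk, adenosine kinase, lay 47, 21 and 33 ends, 17.0-fold, 3.81-fold and 6.00-fold. The inner start of Arhgef3, an exchange factor of small GTPases, held 15, 18 and 13 ends, 6.99-fold, 3.27-fold and 3.91-fold. These 3 are the starts whose upstream sequences are printed above. Ablim1, an actin-binding protein, came next in that order, with 8, 21 and 17 ends at an inner start, 4.44-fold, 3.10-fold and 3.31-fold, and then Pcca with 24, 15 and 21 ends, 14.1-fold, 2.92-fold and 6.76-fold. At an inner start of Upp2, a uridine phosphorylase of liver, were 30, 22 and 10 ends, 7.02-fold, 4.00-fold and 2.09-fold.

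A search of the interiors in windows of 5 kb found dense stretches both at annotated starts and far from them. In Tjp1, Adk, Gphn and Pde4b, the densest stretch lay at most 2272 bases from an annotated start of the gene, and between 9.59% and 17.0% of its ends fell in a single 100 bases. Others lay away from any annotated start of their gene and were as spread out. Acaca, the acetyl-CoA carboxylase that commits carbon to fatty acid synthesis, had 32, 25 and 20 ends in its densest stretch, 15803 bases away, with 14.3% of them in 100 bases. In Nfia, a nuclear factor I gene, the densest stretch held 19, 28 and 20 ends 171123 bases away (13.4% in 100 bases), and in Stard13 41, 33 and 15 ends 177322 bases away (12.4%). In Mdga2, whose stretch of 63, 68 and 49 ends lay 163130 bases away and was second only to that of 2210408I21Rik by the lowest experiment, the share was 28.9%. In Chl1, 84.5% of the ends fell in 100 bases, in Elmo1 71.4%, in 2210408I21Rik 65.6% and in Spag17 47.5%. No genome sequence was used here, so whether those bases are unique in the genome was not tested, and the values of these narrow stacks may not belong to the genes.

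PETs with both ends in the same long gene, 8 kb to 1 Mb apart, were more frequent than exchanged partners gave. There were 49 in JM08, 110 in JM11 and 229 in JM12, where exchanging partners among PETs of the same experiment and linker gave 13.7, 70.3 and 28.3. The ratio was 3.59 (2.65 to 4.74), 1.56 (1.29 to 1.89) and 8.09 (7.07 to 9.21). It fell with distance. From 8 to 20 kb it was 28.1, 7.25 and 53.9, from 50 to 100 kb 4.26, 1.74 and 7.74, and from 200 kb to 1 Mb 0.573 (0.156 to 1.47), 0.841 (0.567 to 1.20) and 2.40 (1.64 to 3.39). In the last class only JM12 stood above 1 beyond counting error.

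At a given distance up to 200 kb, the ratio within the long genes was below that of all autosomes. From 8 to 20 kb, all autosomal PETs gave ratios of 58.2 (51.7 to 65.3), 9.93 (8.35 to 11.7) and 93.7 (87.2 to 101), above those within long genes, 28.1 (15.7 to 46.4), 7.25 (4.43 to 11.2) and 53.9 (41.7 to 68.5), with intervals that overlap in JM11. The genes of 100 to 200 kb gave 103, 12.1 and 104 over the same distance. PETs that crossed a boundary of a long gene numbered 0, 1 and 5 from 8 to 20 kb and 2, 3 and 11 from 20 to 50 kb, with ratios of 7.90 (0.957 to 28.5), 2.71 (0.559 to 7.93) and 18.9 (9.42 to 33.8) in the second class. The intervals contain the within-gene ratios of 9.52, 3.06 and 21.2, so no difference was detectable at this depth.

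**Figure D4:**
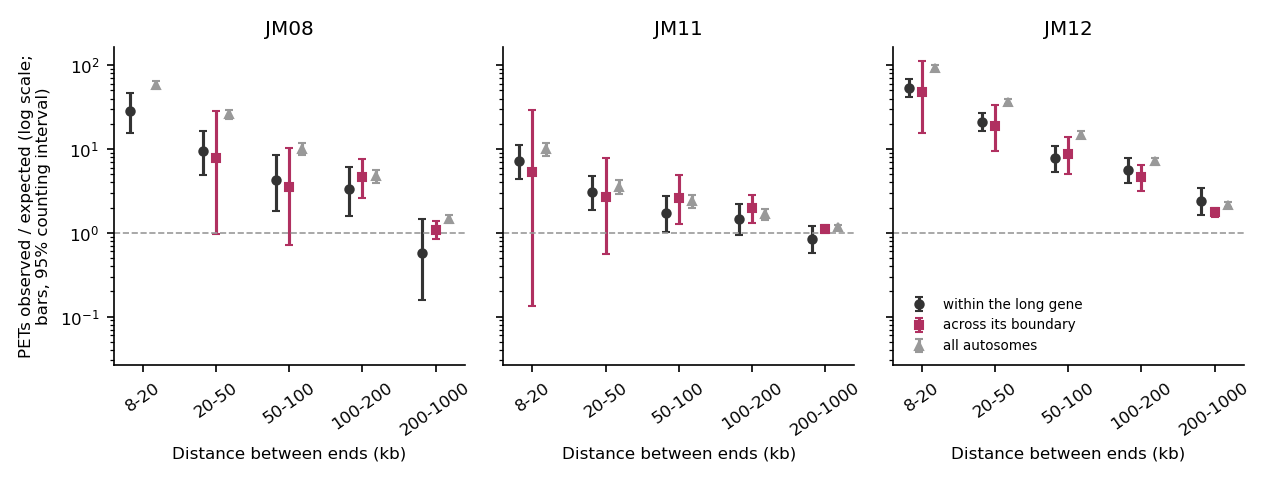
Observed PETs divided by those expected from exchanged partners (log axis) against the distance between the ends in kb, for PETs within a long gene, across its boundary and on all autosomes; bars are 95% counting intervals and a class with no PET is not drawn. The 3 kinds fall together with distance, and at 8 to 20 kb the autosomal ratio, 58.2 in JM08 and 93.7 in JM12, is above that within the long genes.

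The contacts were spread thinly. Of the 944 long genes, 260 (27.5%) held at least 1 of the 388 PETs, 177 held exactly 1 and no gene more than 6. Only Adk, Fhit, Magi1 and Prkce had PETs in all 3 experiments. None of the 388 shared an end position, within 10 bases, with another PET of its gene and experiment. The largest numbers were 6 in Gse1 (2, 0 and 4 in JM08, JM11 and JM12) and 6 in Fhit (1, 3 and 2). These are raw counts, not set against the number that the span of each gene would give. In Fhit, a hydrolase gene of 1.61 Mb, they spanned 210.05 to 952.4 kb. Over all 55 long genes above 1 Mb, the ratio to exchanged partners was 1.08 in JM08, 1.06 in JM11 and 3.43 in JM12. In Gse1 they spanned 8.24 to 143.6 kb. Mob3b, Tns1 and Pde4d had 5 each, all in JM12. Tns1, which codes for the focal adhesion protein tensin, had 3 of its 5 PETs ending between 99.1 and 106.1 kb from its lower boundary.

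Boundaries took part more often than expected in the dual-crosslinked experiments. A PET within a long gene had an end within 2.5 kb of its boundary in 7 of 49 cases in JM08 and 14 of 229 in JM12, against 0.362 and 0.800 expected, ratios of 19.3 (7.77 to 39.8) and 17.5 (9.57 to 29.4). In JM11 it was 2 of 110 against 1.33, a ratio of 1.501 (0.182 to 5.42). No PET joined both boundaries of 1 gene. As shares of the PETs, these were 14.3% (exact binomial interval 5.94 to 27.2%), 6.11% (3.38 to 10.0%) and 1.82% (0.221 to 6.41%), where exchanged partners gave 2.65%, 2.83% and 1.89%. Over the 45 genes with dense boundaries the within-gene ratio was 9.32 (2.54 to 23.9) in JM08 and 30.3 (20.96 to 42.3) in JM12, against 3.40 (2.48 to 4.55) and 7.17 (6.20 to 8.25) over the other 899. In JM11 it was 0.602 (0.0152 to 3.35) from a single PET, against 1.59 (1.30 to 1.91). The JM12 intervals do not overlap, and the JM08 ones do. The median spans of the 45 and the 899 were close, 306.9 kb and 326.9 kb, but the groups differ among the longest genes. No gene of the 45 exceeds 931.5 kb, and the other 899 include all 55 genes over 1 Mb. The JM12 ratio of all genes of 200 to 300 kb was 27.0. The 45 were also chosen by their boundary ends, and ends of these same PETs count among those, for example in Mob3b and Gfra1. The comparison is therefore not independent of the choice and is a description only. The parts of span and of that choice in this difference were not tested.

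Adk and St3gal3 each had a PET joining the same places within 10 kb in a pair of experiments. In Adk the pair was 21075083 and 21112924 on chromosome 14 in JM11, 37.8 kb apart, and 21075823 and 21105815 in JM12, 29.99 kb apart. Their lower ends lie beside the inner start at 21076152, whose upstream sequence is printed above. The JM08 PET of Adk, 23.8 kb long, joined the same inner start to the outer boundary of the gene, 0.417 kb inside it. In St3gal3, a sialyltransferase on chromosome 4, PETs of 17.8 kb in JM08 and 16.7 kb in JM12 joined positions 46.0 and 46.6 kb inside the lower boundary to points about 17 kb further on.

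The long genes on 5 lists by function differed in boundary excess. The lists, like the genes on them, were drawn up with earlier results of these data known, so their values are descriptions. Among 23 broadly expressed large genes, 6 met the boundary rule (26.1%, against 4.77% of all long genes). These were Magi3, Utrn, Immp2l, Lpp, Rad51b and Prkca. Their pooled ratio was 4.46 (3.99 to 4.96) in JM08, 1.54 (1.40 to 1.69) in JM11 and 2.21 (2.00 to 2.45) in JM12, above that of all long genes in each. Ptprk, a receptor tyrosine phosphatase of this list, had ratios of 9.20, 1.92 and 3.30 and missed the rule in JM11.

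The list of transcription factors and co-regulators held 17 long genes, Msi2, an RNA-binding protein, among them. Of these, 2 met the rule (11.8%, against 4.77% of all long genes), Nfib and Ncoa2. The pooled ratio over the list was 2.97 (2.55 to 3.45), 1.51 (1.36 to 1.69) and 1.93 (1.71 to 2.17). Nfib, a nuclear factor I gene, was also dense over its length, at 1.38, 1.10 and 1.60. Ncoa2, a coactivator of nuclear receptors, had ratios of 8.96, 2.80 and 2.71. Rora, the receptor that activates Bmal1 transcription, had a ratio of 0.785, 1.01 and 1.75, so its boundaries did not stand out together. Of 16 genes of liver metabolism and hormone signalling, 3 met the rule (18.8%), as given above, and the pooled ratio was 2.60 (2.20 to 3.04), 1.35 (1.19 to 1.52) and 2.11 (1.85 to 2.38). Ppargc1a, a coactivator of gluconeogenic genes, had 1.30, 1.01 and 1.53. Adk, at 3.98, 1.90 and 3.09, missed the rule in JM11.

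None of 40 genes for neuronal adhesion and synapses met the rule, against 4.77% of all long genes. They are longer than most (median 1135 kb), and of the 55 long genes over 1 Mb of any kind none met it either. With that median, many of the 40 are themselves among the 55, so the 55 are not a separate comparison. For the neuronal genes the pooled ratio was 1.21 (1.04 to 1.41) in JM08, 1.07 (0.986 to 1.16) in JM11 and 1.45 (1.30 to 1.61) in JM12, beside 1.29, 1.12 and 1.45 for all long genes over 1 Mb. Dlg2, a synaptic scaffold, had the highest of them in JM08 and JM12, 4.08 and 3.08, with 1.68 in JM11; its boundary lies 193 bases from Tmem126b. Cntnap2, a neuronal adhesion protein gene of 2.24 Mb, had 0.902, 1.05 and 1.14. The interiors of these genes were denser than the median long gene in 29 of 40 in JM08 and 28 of 40 in JM11, but in only 9 of 40 in JM12. The 6 long genes among nonparenchymal markers, Reln and Lama2 among them, gave 1.22 (0.791 to 1.79), 1.02 (0.820 to 1.26) and 1.37 (1.02 to 1.79), with none past the rule.

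**Figure D5:**
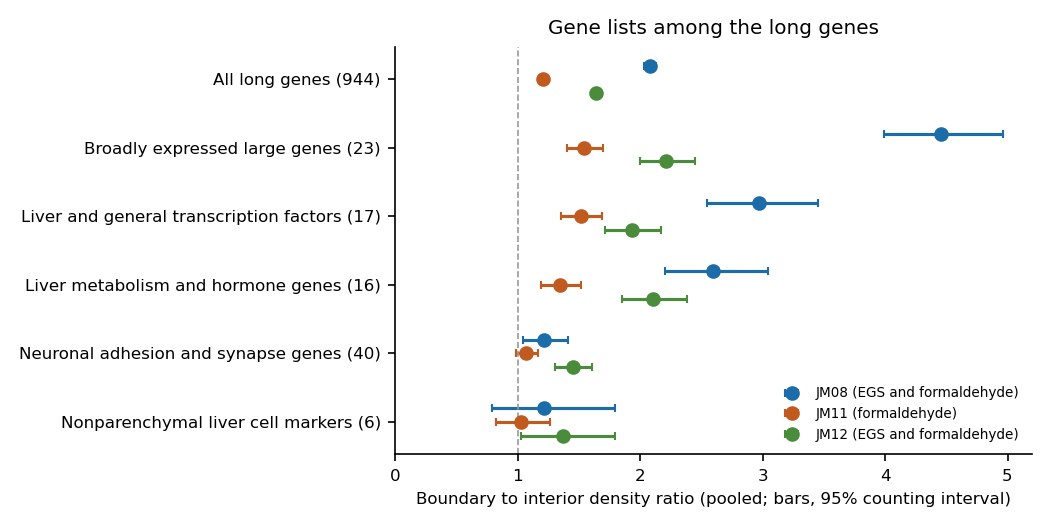
Boundary to interior density ratio, pooled over the long genes of each list and over all 944, with 95% counting intervals; numbers of genes are in parentheses and colours are the experiments. Broadly expressed genes lie furthest right in JM08, at 4.46, and neuronal genes at 1.21 there.

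PETs within the genes of these lists were few. The neuronal genes held 2, 19 and 17, where exchanged partners gave 3.82, 19.0 and 6.04, a ratio above 1 beyond counting error only in JM12, at 2.82 (1.64 to 4.51). The liver metabolism genes held 2, 3 and 12 against 0.321, 1.44 and 0.755, with a JM12 ratio of 15.9 (8.21 to 27.7). Both lists differ in span, and the ratio fell with span over all long genes in JM12, from 27.0 (21.8 to 33.1) at 200 to 300 kb to 3.43 (2.34 to 4.84) over 1 Mb. The experiments ranked the long genes only loosely alike: Spearman's rank correlation across 944 genes was 0.308 between JM08 and JM11, 0.407 between JM08 and JM12 and 0.311 between JM11 and JM12 for relative density. For the boundary ratio it was 0.357, 0.379 and 0.360 over the 940 or 941 genes with a value. Genes are not independent replicates, and all share the annotation and the mapping.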

How the data were processed

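The authors deposited 1 table of 2753554 PETs from 8 libraries, in which each row gives an experiment, a linker, and the chromosome and position of both ends; it has no scores or depths, so everything here is a count of ends or PETs made from these deposited positions. Bowtie2 and mm10 (the same assembly as GRCm38) are named in the submitters' processing notes, without a version or role, and no source used here gives a filter on duplicates. Without mitochondrial PETs, JM08, JM11 and JM12 held 474466, 1438852 and 837971 PETs. Gene coordinates are those of RefSeq on GRCm38.p6, and strand is from its promoter table.

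Ends were counted in each gene, within 2.5 kb of its boundaries and in the rest. Ratios have exact conditional binomial (Clopper-Pearson) 95% intervals and PET counts exact Poisson intervals, and expected PETs are the exact mean over all exchanges of partners within experiment and linker among PETs over 8 kb or between chromosomes. With 1 pool for each experiment no p-value was computed. A call needed a 2-fold ratio and at least 5 boundary ends, or a relative density of 1.5, in all 3 experiments. Genes were named as the 10 highest in density, the 10 highest in boundary ratio, up to 10 with most PETs, the 5 lowest in density, and those on 5 lists; others were chosen after their values were seen. The members and lists were chosen with earlier results of these data known. The scripts (Python 3.11.15, numpy 2.4.6, pandas 2.3.3, scipy 1.17.1, matplotlib 3.10.9) were tested on simulated data. Alternatives were other windows, distances, spans, collapsing of PETs within 10 bases, and leaving out each experiment.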

Additional observations from a re-analysis of the deposited data

How the results depend on the processing

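Of 56 values under alternatives, 25 stayed within counting error (or within 1.5 times for a count), 31 moved and 0 changed direction. In the order JM08, JM11 and JM12, the boundary ratio was 2.90, 1.35 and 2.10 with windows of 1 kb on either side, 1.64, 1.12 and 1.40 with 5 kb, and 1.71, 1.14 and 1.56 without PETs within 8 kb. It was 1.81 in JM08 and 1.55 in JM12 over genes above 300 kb, and 2.46, 1.24 and 1.75 above 100 kb. With only boundaries that have no other boundary within 5 kb, an alternative added after the data were seen, it was 1.94, 1.18 and 1.57. The within-gene PET ratio was 2.51 in JM11 and 13.5 in JM12 from 4 kb, 2.59 in JM08 and 6.02 in JM12 from 20 kb, 5.44 in JM12 over genes above 300 kb, and 6.73, 2.31 and 13.2 up to 200 kb. The 45 genes with dense boundaries became 98 with 1 kb windows, 9 with 5 kb windows, 19 without PETs within 8 kb, and 50, 153 and 54 without JM08, JM11 and JM12. The 0 genes at a relative density of 1.5 became 1 without JM11 and 125 at a density of 1, a limit added after the data were seen. Collapsing PETs within 10 bases, which removed 1.96% of JM08, moved none of these values. Depth limits single genes: the median long gene has 5, 15 and 10 boundary ends. No paired analysis was possible because the table does not name the libraries and no test was run.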
